A study of Homo sapiens with 65 samples.

Results

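The 37 genes described here encode enzymes and carriers of the tricarboxylic acid (TCA) cycle, of fatty acid oxidation and of the creatine kinase energy buffer, and they were taken by symbol from a named list, out of 58735 gene IDs in the count table. All 37 were found. They fall into 7 roles: 4 subunits of the pyruvate dehydrogenase complex (PDHA1, PDHB, DLAT, DLD), 13 TCA cycle enzymes, 5 genes of the carnitine shuttle (CPT1A, CPT1B, CPT2, SLC25A20, CROT), 8 enzymes of mitochondrial β-oxidation, 3 genes of the electron transfer flavoprotein system (ETFA, ETFB, ETFDH), 2 genes of fatty acid uptake and binding (FABP3, CD36) and 2 creatine kinases (CKM, CKMT2). Expression was measured by 3′ mRNA sequencing in 65 libraries of left-ventricular cardioids, self-organising heart-like aggregates grown from the human induced pluripotent stem cell line WTC-11, with 8 cardioids pooled per library. In the genotype arm (41 libraries), wild-type cardioids (WT) were set against clones labelled HAS2 knockout (KO) at day 1.5 (5 WT and 6 KO libraries), day 2.5 (6 and 6), day 4.5 (6 and 6) and day 7.5 (3 and 3). HAS2 encodes a synthase of hyaluronan, a sugar polymer of the extracellular matrix. The KO libraries came from 4 clones (cl4, cl14, cl46, cl51), of which cl4 gave up to 3 libraries a day, and the WT libraries from 4 line names (WT, WT_TU, cl43_WT_UT, TNT2). Of these, cl46, cl51, cl43_WT_UT and TNT2 had no library at day 7.5. In the enzyme arm (24 libraries), untreated cardioids were compared with cardioids given hyaluronidase, which digests hyaluronan. Treatment began at day 1.5 in the group called HAse1.5 and at day 2.5 in the group called HAse2.5. This arm held 3 libraries per group, one each of the lines TNNI1 (number 1), WT (number 2) and TNNT2 (number 3). Its untreated and HAse1.5 groups were collected at days 2.5, 4.5 and 7.5, and HAse2.5 at days 4.5 and 7.5. All groups share the parental line and the left-ventricular protocol, whose medium changed between the days compared, so day and medium cannot be told apart.

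Pyruvate dehydrogenase turns pyruvate into acetyl-CoA, the carbon that the TCA cycle oxidises in the mitochondrial matrix to feed the respiratory chain. Long-chain fatty acids reach the same pool by another route: they are bound in the cytosol by FABP3, loaded onto carnitine by CPT1, carried across the inner membrane by SLC25A20, released by CPT2 and shortened by the β-oxidation enzymes, whose electrons pass to the electron transfer flavoprotein. The early heart relies largely on glycolysis, and oxidation of fatty acids becomes the main fuel of the mature cardiomyocyte. CKM and CKMT2 are the cytosolic and mitochondrial creatine kinases of striated muscle, which move phosphate between ATP and creatine.

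Promoter windows of 250 bases before the RefSeq start (GRCh38.p14) matched 34 of the 37 genes, and 3 are shown because their genes stand for the patterns described further on: IDH3A, whose level dipped and then rose, HADHB, an enzyme of fatty acid oxidation, and CKM, the muscle creatine kinase. Capitals mark matches to the NRF1 core motif (CGCANGCGC) or to the estrogen-related receptor half-site (AAGGTCA), searched on both strands.
IDH3A, chr15:78149112-78149361, plus strand: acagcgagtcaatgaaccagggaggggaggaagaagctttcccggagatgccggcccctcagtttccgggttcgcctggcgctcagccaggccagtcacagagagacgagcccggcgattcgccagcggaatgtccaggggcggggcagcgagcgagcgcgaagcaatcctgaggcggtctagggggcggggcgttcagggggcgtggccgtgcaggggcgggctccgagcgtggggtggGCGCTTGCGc
HADHB, chr2:26244689-26244938, plus strand: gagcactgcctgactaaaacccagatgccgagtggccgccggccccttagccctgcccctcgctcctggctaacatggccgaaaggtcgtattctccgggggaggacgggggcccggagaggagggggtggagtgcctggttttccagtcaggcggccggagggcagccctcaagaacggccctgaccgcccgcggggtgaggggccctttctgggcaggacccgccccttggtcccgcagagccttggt
CKM, chr19:45322876-45323125, minus strand: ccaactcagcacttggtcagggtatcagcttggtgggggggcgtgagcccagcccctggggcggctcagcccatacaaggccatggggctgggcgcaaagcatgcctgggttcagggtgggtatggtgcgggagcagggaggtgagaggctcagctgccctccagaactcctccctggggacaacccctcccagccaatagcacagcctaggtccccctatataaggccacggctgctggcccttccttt
The NRF1 core occurred in 4 of the 34 windows (11.8%), those of PDHA1, IDH3A, IDH3G and SUCLA2, against 7.09% of all 27305 promoters of the same length. The half-site occurred in 1 (2.94%), that of SUCLA2, against 3.46% of all. Of the 3 windows shown, only that of IDH3A held a match. These are letter matches in a short window, and they say nothing of whether a factor binds. The HADHA and HADHB windows face each other on chromosome 2 and share 194 bases, with 306 bases between both starts: the 2 genes encode the α and β subunits of the mitochondrial trifunctional protein. The median member window held 19 CpG dinucleotides, against 11 over all promoters. Only 3 members (ACADVL, CD36 and IDH2) held fewer than 5, which 35% of all promoters did, and the CKM window held 5.

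The libraries held between 831062 and 3574843 counts, with a median of 1570954. CPM, counts divided by the library's total and multiplied by 1000000, are compared here within a gene, since 3′ reads are not scaled by transcript length. Of the 37 genes, 35 passed the filter on low counts in the genotype arm and 34 in the enzyme arm: CPT1B and CD36 passed in neither arm, and CKMT2 did not in the enzyme arm. The sum of 10 cardiomyocyte markers (sarcomere genes such as TNNT2, MYH7 and TTN) rose from a median of 62.7 CPM in WT at day 1.5 to 2498 at day 2.5, 42750 at day 4.5 and 69911 at day 7.5. In bulk libraries, fewer cells of a type and less RNA per cell cannot be told apart. The HAS2 counts do not check the KO label, because the 3′ reads need not lie in the part of the gene that was edited. Replicate numbers and clone names are as the labels give them, and p-values measure the spread between these libraries.

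**Figure D1:**
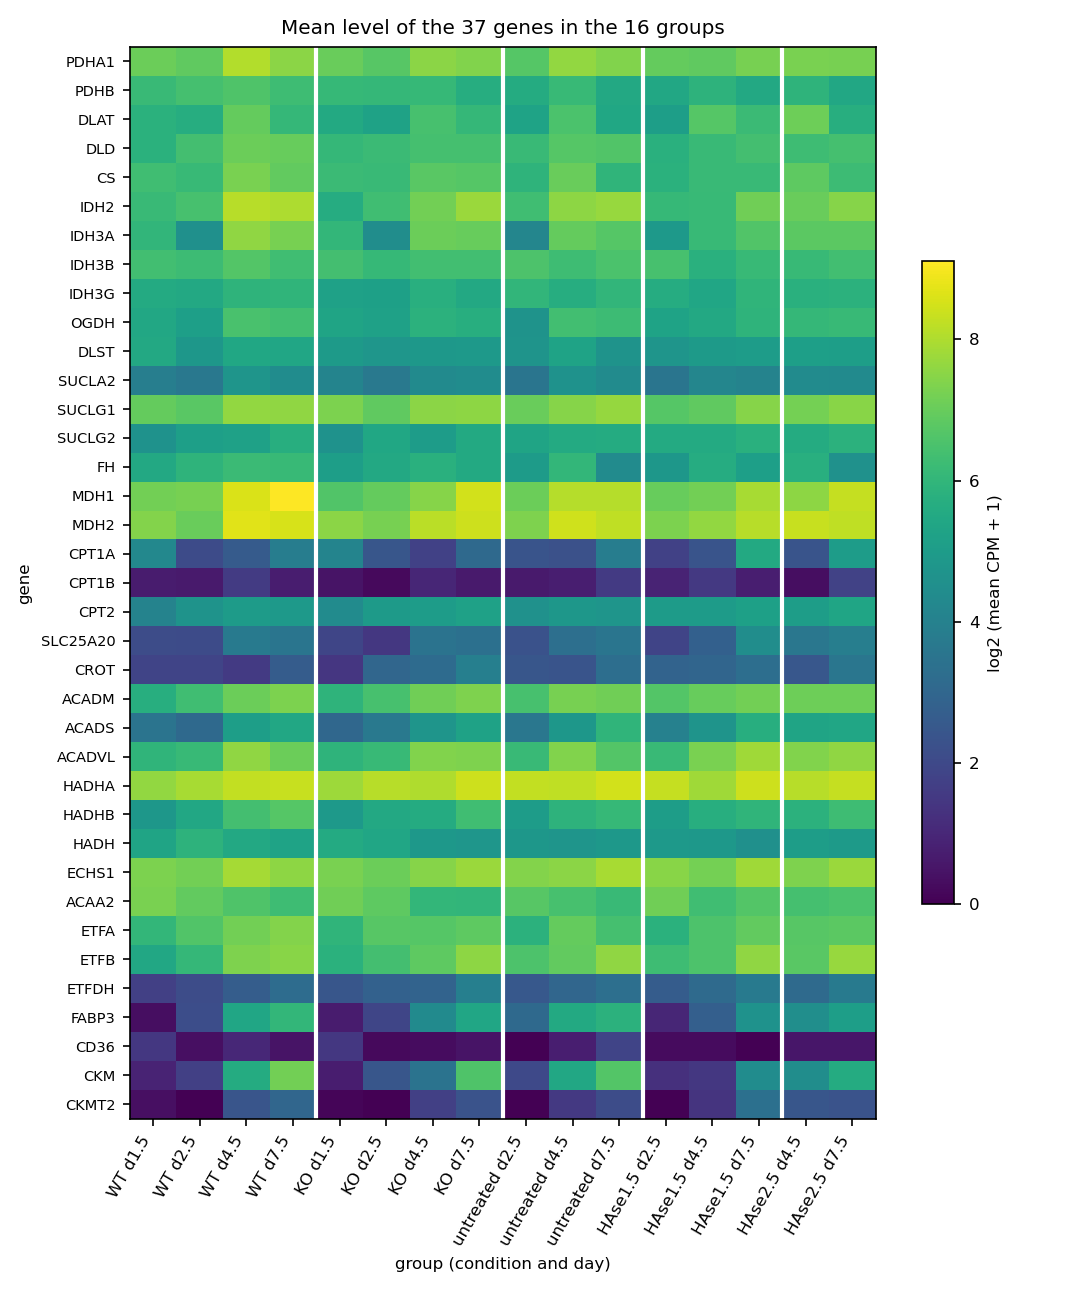
Mean level of each of the 37 genes (rows) in the 16 groups (columns), as log2 of the mean CPM plus 1, with white lines between conditions. Colours are to be compared along a row: most rows are brighter at days 4.5 and 7.5 than at days 1.5 and 2.5, IDH3A is darkest at day 2.5 among the WT, KO and untreated columns, and CPT1B and CD36 are dark throughout.

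In WT cardioids, the main rise of the oxidative genes fell between day 2.5 and day 4.5. Of the 35 genes tested, 23 rose and none fell (edgeR quasi-likelihood test, Benjamini-Hochberg adjusted p under 0.05, used throughout), where 18.6% of all 13797 genes rose and 15.9% fell. The median log2 change of the 35 was 0.918, against 0.027 over all genes. By role, 3 of 4 pyruvate dehydrogenase genes, 9 of 13 TCA enzymes, 5 of 8 β-oxidation enzymes, 2 of 3 flavoprotein genes, 1 of 4 tested carnitine-shuttle genes, FABP3 and both creatine kinases rose. Between days 1.5 and 2.5, before this rise, 1 of the 35 rose and 5 fell, where 15% of all genes rose and 15.1% fell. Between days 4.5 and 7.5 none passed, where 2.7% of all genes did, and 4 had an unadjusted p under 0.05. The 3 WT libraries of day 7.5 were of the lines WT and WT_TU only, so day and line cannot be fully told apart in this step. In a fit with line and R number as a replicate block, 2 passed in that last interval. DESeq2 called 1, as did the fit to library totals and the fit without cl43_WT_UT at day 4.5.

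IDH3A, the catalytic subunit of the NAD-dependent isocitrate dehydrogenase of the TCA cycle (ENSG00000166411, chromosome 15, 78131498 to 78171949, GRCh38), had the sharpest reversal. At day 1.5 the 5 WT libraries had 62.9 (WT_R1), 64.7 (WT_TU_R1), 62.7 (WT_R2), 61.0 (cl43_WT_UT) and 62.0 CPM (TNT2). At day 2.5 the 6 libraries ran from 15.4 through a median of 23.2 to 27.5 CPM, and at day 4.5 from 145 through 178 to 266 CPM. The 3 sets of libraries did not overlap. IDH3A fell by 1.70 on the log2 scale (SE 0.202, adjusted p = 1.42e-08) and then rose by 3.15 (SE 0.203, adjusted p = 1.24e-15). At day 7.5 it stood at 149 ± 22.3 CPM (SD, n = 3). KO libraries had 64.2 ± 7.54 CPM at day 1.5 (SD, n = 6), 21.0 ± 8.43 at day 2.5, 134 ± 27.7 at day 4.5 and 126 ± 13.9 at day 7.5, with a fall of 1.81 (adjusted p = 2.50e-09) and a rise of 2.67 (adjusted p = 1.23e-13). In the enzyme arm, untreated libraries rose from 23.5, 14.3 and 14 CPM to 153, 95.9 and 117 CPM for numbers 1, 2 and 3. The IDH3A locus overlaps ACSBG1 and CIB2 on the opposite strand, and the strand setting of the counting is not given in the sources used here, so reads of these genes could be mixed. Its partner subunits had smaller changes: IDH3G rose by 0.511 between days 2.5 and 4.5 in WT (SE 0.185, adjusted p = 0.0279), and IDH3B did not pass (74.4 ± 19.4 CPM to 101 ± 36.3 CPM, SD, n = 6 each).

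The other TCA enzymes rose by less. IDH2, the NADP-dependent mitochondrial isocitrate dehydrogenase, ran from 61.4 through 80.3 to 126 CPM in WT at day 2.5 and from 138 through 259 to 396 CPM at day 4.5, with no overlap, a rise of 1.72 (SE 0.23, adjusted p = 1.09e-07). MDH2, the mitochondrial malate dehydrogenase, fell from 156, 161, 169, 169 and 202 CPM at day 1.5 to a range of 104 to 151 CPM at day 2.5 (−0.60, SE 0.176, adjusted p = 0.00783), a call lost when library totals replaced TMM factors (adjusted p = 0.0735). It then rose to between 276 and 503 CPM at day 4.5 (1.74, SE 0.172, adjusted p = 1.09e-10). DLST, a subunit of oxoglutarate dehydrogenase, also fell at the earlier step (−0.91, adjusted p = 0.0377), but the groups overlapped and the call was lost in 9 of 17 alternatives. MDH1, the cytosolic malate dehydrogenase, OGDH, the first subunit of the oxoglutarate dehydrogenase complex, CS, citrate synthase, SUCLA2 and SUCLG1, subunits of succinyl-CoA ligase, rose between days 2.5 and 4.5 by 0.918 to 1.43. FH, fumarase, SUCLG2, DLST and IDH3B did not pass. Of the pyruvate dehydrogenase genes, DLAT (1.34), PDHA1 (1.23) and DLD (0.73) rose, and PDHB had 84.8 ± 23.5 CPM at day 2.5 and 96.0 ± 54.2 CPM at day 4.5 (SD, n = 6 each).

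FABP3, the heart-type fatty acid binding protein of the cytosol (ENSG00000121769, chromosome 1, 31365625 to 31376850), had 0 or 1 counts in each of the 5 WT libraries at day 1.5 and 3 to 11 counts at day 2.5. At day 4.5 its level ran from 27.2 through 41.9 to 61.4 CPM, and at day 7.5 it was 90.8, 53.0 and 51.1 CPM. All 4 days were apart except days 4.5 and 7.5, which overlapped, and the rise between days 2.5 and 4.5 was 3.58 (SE 0.392, adjusted p = 1.29e-09). CPT1A, the carnitine palmitoyltransferase that controls entry of long-chain fatty acids into mitochondria, went the other way first. It had 28.5, 8.43, 13.6, 29.2 and 9.30 CPM at day 1.5, and at most 6.42 CPM at day 2.5, a fall of 2.64 (SE 0.466, adjusted p = 2.42e-05) with no overlap. It was 5.13 ± 1.92 CPM at day 4.5 (SD, n = 6) and 9.75, 20.9 and 9.70 CPM at day 7.5, and neither later step passed. CPT1B, the muscle form, and CD36, a fatty acid transporter of the cell surface, had at most 10 and 12 counts in any library and were not tested. Group means were 0.185 to 1.98 CPM for CPT1B and 0.185 to 1.81 CPM for CD36 over the WT and KO groups. CPT1B overlaps the read-through locus CHKB-CPT1B, so its few counts are uncertain.

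SLC25A20, the carnitine-acylcarnitine carrier, rose between days 2.5 and 4.5 by 1.96 (SE 0.41, adjusted p = 1.98e-04), from 1.43 to 5.58 CPM to 5.27 to 16.3 CPM. CPT2, the inner-membrane transferase, and CROT, the peroxisomal carnitine octanoyltransferase, did not pass. Of the acyl-CoA dehydrogenases, which take the first step of β-oxidation on short, medium and very long chains, ACADS rose by 2.16, ACADM by 0.79 and ACADVL by 1.502. ACADS went from a range of 4.19 to 12.8 CPM to 20.2 to 42.2 CPM, and the libraries did not overlap. HADHB rose by 1.019 (SE 0.192, adjusted p = 4.46e-05), from 33.0 to 55.8 CPM to 54.1 to 117 CPM, while HADHA, its partner in the trifunctional protein, had 238 ± 46.0 and 306 ± 58.9 CPM and did not pass. ECHS1 (0.79), ETFB (1.35) and ETFA (0.60) rose as well. ETFB ran from 54.2 to 75.7 CPM at day 2.5 and from 145 to 173 CPM at day 4.5. In the GENCODE 29 annotation the genes HADHA (chromosome 2, 26190635 to 26244726, minus strand) and HADHB (26243170 to 26290468, plus strand) overlap at their ends.

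ACAA2, the thiolase that closes the β-oxidation cycle, was the 1 gene that was lower at day 7.5 than at day 1.5 in WT: 197, 185, 122, 139 and 119 CPM at day 1.5 against 69.8, 87.2 and 73.1 CPM at day 7.5 (−1.15, SE 0.232, adjusted p = 7.78e-05), with no overlap. Over that whole course 19 of the 35 genes were higher and 1 was lower, where 25.5% of all genes were higher and 24.5% lower. Day 7.5 lacked the lines cl43_WT_UT and TNT2, so day and line cannot be fully told apart here either. The median change was 0.923, against 0.016 over all genes, which library totals moved to 0.151. The step of ACAA2 between days 1.5 and 2.5 (−0.58, adjusted p = 0.0138) was lost without WT_R1 or WT_TU_R1 at day 1.5 and in 3 other alternatives (highest adjusted p 0.118). For the WT step between days 1.5 and 2.5, library totals in place of TMM factors moved the median of all genes from 0.011 to 0.217 and the share of higher calls from 49.9% to 67.4%.

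The creatine kinases had the widest range. CKM (ENSG00000104879, chromosome 19, 45306414 to 45322977) had 1 to 4 counts per WT library at day 1.5 and 1 to 9 counts at day 2.5. At day 4.5 the 6 WT libraries ran from 11.2 through 47.2 to 72.0 CPM, and at day 7.5 they had 143, 132 and 156 CPM, above all those of day 4.5. The rise between days 2.5 and 4.5 was 4.47 (SE 0.56, adjusted p = 2.63e-08), and that between days 4.5 and 7.5 was 1.62 (95% interval 0.623 to 2.62, adjusted p = 0.0658) and did not pass. CKMT2 had 0 counts in all 12 WT and KO libraries of day 2.5. Against the floor of 3 counts over the group, it was at least 22.8-fold higher in WT and at least 7.79-fold higher in KO at day 4.5. WT libraries of day 4.5 had 19, 35, 3, 6, 3 and 0 counts, and without WT_TU_R1, which had 35, the bound was 13.8-fold. KO libraries had 12, 7, 2, 2, 1 and 1 counts, and without cl4_R1, which had 12, it was 5.03-fold.

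**Figure D2:**
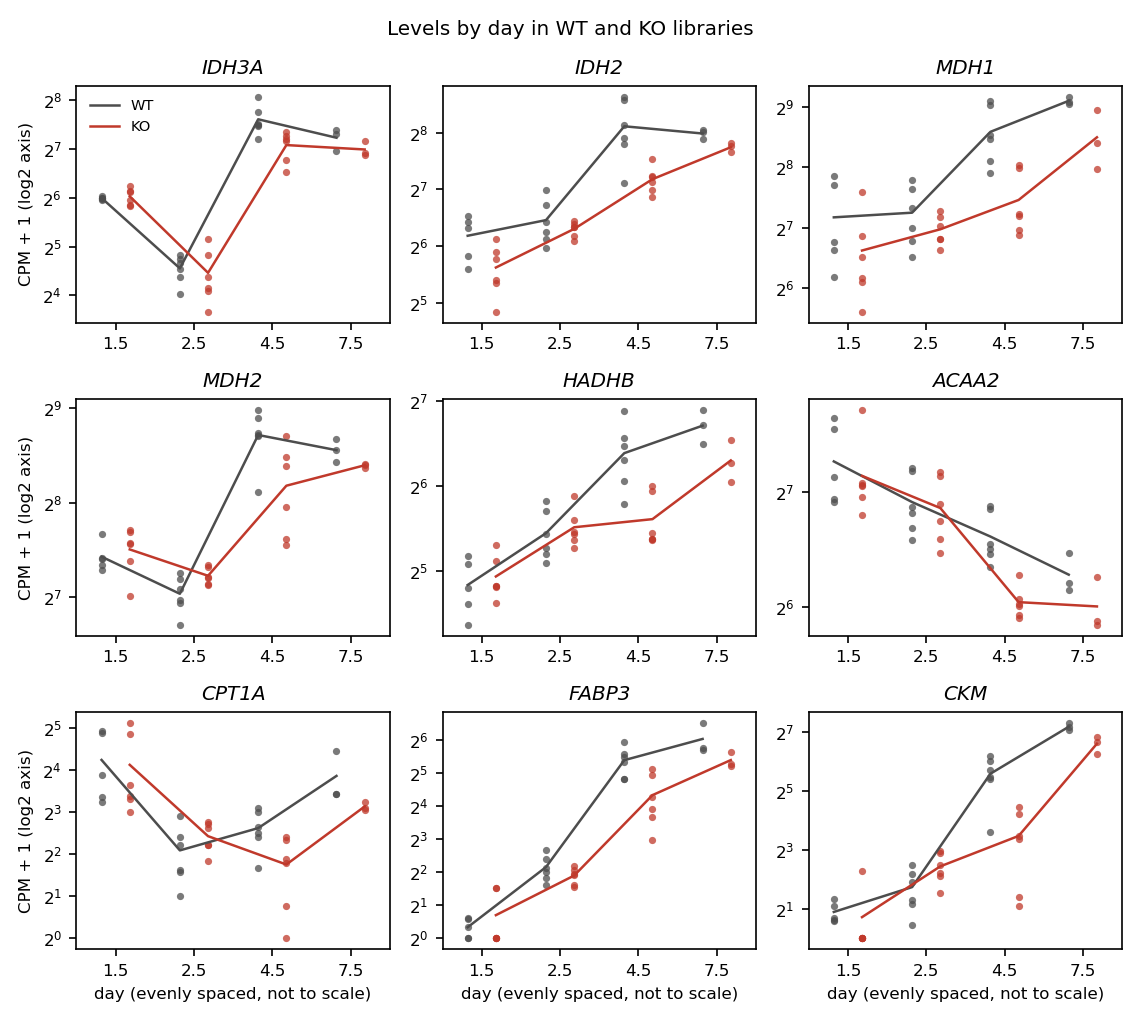
CPM plus 1 (log2 axis) by day for 9 genes, with a point for each library and a line through the group means of WT (grey) and KO (red). IDH3A dips at day 2.5 in both genotypes, ACAA2 declines, and the KO points of CKM, IDH2, MDH1 and HADHB lie mostly under the WT points at day 4.5.

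In KO cardioids between days 2.5 and 4.5, 16 of the 35 genes rose and 1, ACAA2, fell (−0.80, adjusted p = 4.75e-04), where 15.6% of all genes rose and 14.9% fell, and the median change was 0.529. The largest rises after CKMT2 were FABP3 (2.85), IDH3A (2.67), SLC25A20 (2.31), ACADVL (1.27), DLAT (1.27), ACADS (1.18) and MDH2 (0.98). CKM had 1.91 to 6.79 CPM at day 2.5 and 1.16 to 20.8 CPM at day 4.5, which overlap, and did not pass (1.18, 95% interval 0.072 to 2.29, adjusted p = 0.102). Between days 1.5 and 2.5, 4 rose and 8 fell, where 17.2% of all genes rose and 16.1% fell. CPT1A fell, from between 6.96 and 33.4 CPM to between 2.55 and 5.74 CPM (−2.09, SE 0.453, adjusted p = 3.76e-04), and CROT rose (1.85, adjusted p = 0.0136) with overlapping libraries. CKM was at 0 counts in 5 of the 6 KO libraries of day 1.5 and had 3 to 13 counts at day 2.5. The count of 12 was 7 without cl4_R1 of day 2.5, the library with the fewest counts, 6 with no filter on low counts and 7 in a fit of these 2 groups alone. With library totals the share of higher calls over all genes was 68.8% in place of 51.7%, and the median of all genes was 0.237 in place of 0.018. Between days 4.5 and 7.5, 3 genes rose and none fell, where 3.21% of all genes rose and 3.02% fell: CKM (3.28, SE 0.529, adjusted p = 3.91e-05), ETFB (0.79, adjusted p = 0.00343) and HADHB (0.76, adjusted p = 0.0375). CKM went from a range of 1.16 to 20.8 CPM to 114, 75.4 and 99.6 CPM. The KO libraries of day 7.5 were of cl4 and cl14 only, so day and clone cannot be fully told apart in this step. The replicate block of line and R number gave 5 calls in that interval, DESeq2 6, the fit of the 2 groups alone 5, and leaving out cl4_R1 or cl4_R2 of day 4.5 gave 5.

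KO and WT were compared day by day. At day 1.5 no gene of the 35 passed (0% of all genes did), with 3 at an unadjusted p under 0.05. At day 2.5 none passed, where 0.993% of all genes did, with 2 at an unadjusted p under 0.05. DESeq2 and every other alternative gave 0 at both days. At day 4.5, 11 of the 35 were lower in KO and 1 was higher, where 2.6% of all genes were lower and 1.14% higher (with library totals, 41% of calls over all genes were higher in place of 30.4%). The log2 difference was below 0 for 32 of 35, with a median of −0.571 against −0.026 over all genes. At day 7.5 none passed, where 0.348% of all genes did. There 27 of 35 differences were below 0, with a median of −0.257, and 2 had an unadjusted p under 0.05.

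Of the day 4.5 differences, 3 held without any 1 of the 12 libraries, those of CKM, IDH2 and HADHB. CKM ran from 1.16 through 9.68 to 20.8 CPM in KO and from 11.2 through 47.2 to 72.0 CPM in WT. The lowest WT library, cl43_WT_UT, lay inside the KO range, and the lowest KO libraries were those of cl46 and cl51. CKM was lower by a log2 difference of −2.27 (SE 0.472, adjusted p = 0.00299). IDH2 ran from 115 through 144 to 185 CPM in KO and from 138 through 259 to 396 CPM in WT, again with cl43_WT_UT inside the KO range (−1.023, SE 0.225, adjusted p = 0.00556). HADHB ran from 40.0 through 41.6 to 62.9 CPM in KO and from 54.1 through 83.1 to 117 CPM in WT (−0.87, SE 0.192, adjusted p = 0.00568), with an overlap.

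The other 8 genes lower in KO were MDH1 (−1.21, adjusted p = 0.0213), FABP3 (−1.14, adjusted p = 0.0471), OGDH (−0.73, adjusted p = 0.0458), DLD (−0.72, adjusted p = 0.0281), ACAA2, PDHA1, MDH2 and ETFB. The last 4 differed by −0.66 to −0.58. The ACAA2 and ETFB libraries did not overlap: ETFB ran from 84.0 to 134 CPM in KO and from 145 to 173 CPM in WT, and ACAA2 from 59.1 to 76.6 CPM in KO and from 80.3 to 116 CPM in WT. CROT was higher in KO (1.90, SE 0.566, adjusted p = 0.0487), with 9 to 19 counts per KO library and 0 to 10 per WT library, and in CPM the groups were apart. It belongs to the peroxisomal branch of the carnitine system, and its call was lost in 14 of 19 alternatives. Those of FABP3 and OGDH were each lost in 13 of 19, that of DLD in 8 and that of MDH1 in 7. The total of 12 calls was 3 without WT_R1, cl46_R1 or cl51_R1, 4 without WT_TU_R1, and 5 without cl4_R3 or cl14_R1. It was also 3 with no filter on low counts and 3 in a fit of the 2 groups alone. Those 3 were CKM (adjusted p = 0.0457), MDH1 (0.045) and IDH2 (0.0483), and HADHB was not among them (0.0683).

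Library numbers in the genotype arm fell into 3 blocks, called A, B and C here. At day 4.5 block A held 2 WT and 1 KO library, block B 2 and 1, and block C 2 and 4. Over all 37 genes, called or not, the KO mean was below the WT mean for 29 in block A, 23 in block B and 29 in block C. The 11 genes lower in KO were called from these same libraries, so their order within the blocks is not separate evidence. FABP3 went the other way in block A, with 30.0 CPM in KO and 27.2 and 27.7 CPM in WT. For IDH2 the KO means were 149, 139 and 144 CPM in blocks A, B and C, and the WT means were 388, 231 and 208 CPM. For CKM they were 17.8, 20.8 and 5.54 CPM in KO and 52.3, 57.5 and 31.3 CPM in WT. With the block as a term in the fit, 13 genes passed. In block C alone 2 passed, MDH1 (−0.97, adjusted p = 0.00406) and FABP3 (−1.80, adjusted p = 0.00895), and CKM (−2.60, adjusted p = 0.297), IDH2 (−0.57, adjusted p = 0.523) and HADHB (−0.59, adjusted p = 0.258) did not.

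Cardiomyocyte markers moved with these genes at day 4.5. Their summed level had a median of 42750 CPM in WT (34046 to 63170) and 31307 CPM in KO (16434 to 43981), all 10 markers were below 0 and 5 of 10 passed, so the part of cardiomyocyte content in the lower metabolic genes was not tested. Of the other lists of cell markers, 3 of 7 cardiac progenitor genes were higher and 1 lower, 1 of 5 pluripotency genes was higher, 1 of 6 fibroblast and smooth muscle genes was lower, and none passed among the tested mesoderm, endoderm, endothelial and epicardial markers. At day 7.5, where the summed cardiomyocyte level was 69911 CPM in WT (62610 to 70766) and 65947 CPM in KO (59806 to 67546), CKM was 143, 132 and 156 CPM in WT and 114, 75.4 and 99.6 CPM in KO. These groups did not overlap, and the difference was −0.62 (95% interval −1.81 to 0.578) and did not pass. Of the 35 genes, 11 lay wholly lower in KO (DLD, IDH2, IDH3G, OGDH, DLST, MDH1, MDH2, CPT1A, ETFA, FABP3 and CKM) and 1 wholly higher, where 7.72% and 9.11% of all genes did with 3 libraries against 3, and none of the 12 passed. Among them OGDH differed by −0.69 (95% interval −1.31 to −0.08, adjusted p = 0.78) and DLD by −0.62 (adjusted p = 0.788). CROT, the 1 that was higher, had 15.0, 10.9 and 16.6 CPM in KO and 3.08, 4.19 and 8.41 CPM in WT (1.40, adjusted p = 0.951). At that day WT libraries came from blocks A and B and KO libraries from B and C, so block and genotype cannot be fully told apart. The clones cl46 and cl51, which had the lowest CKM at day 4.5, had no library at day 7.5.

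The change over time was tested directly. Between days 2.5 and 4.5, the KO step was smaller than the WT step for CKM (difference of the log2 steps −3.29, SE 0.8, adjusted p = 0.0384) and ETFB (−0.87, SE 0.216, adjusted p = 0.0446), 2 of 35 genes where 0.609% of all genes passed, and 32 of 35 differences were below 0. Both genes started higher in KO at day 2.5 without passing (log2 difference 1.016 for CKM and 0.284 for ETFB), and this start is part of the difference of the steps. Between days 4.5 and 7.5, 29 of 35 differences were above 0 and none passed, where 0.159% of all genes did. Between days 1.5 and 2.5 none passed, where 0.0797% of all genes did. The CKM and ETFB calls were close to the threshold: the count was 0 with no filter on low counts, 4 with the replicate block of line and R number, and 0 or 1 when any of 21 of the 24 libraries was left out. It was 0 without WT_R1, WT_TU_R1, cl4_R2, cl14_R1 or cl51_R1 of day 2.5, or without WT_TU_R1, WT_TU_R2, TNT2, cl4_R3, cl46_R1 or cl51_R1 of day 4.5.

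**Figure D3:**
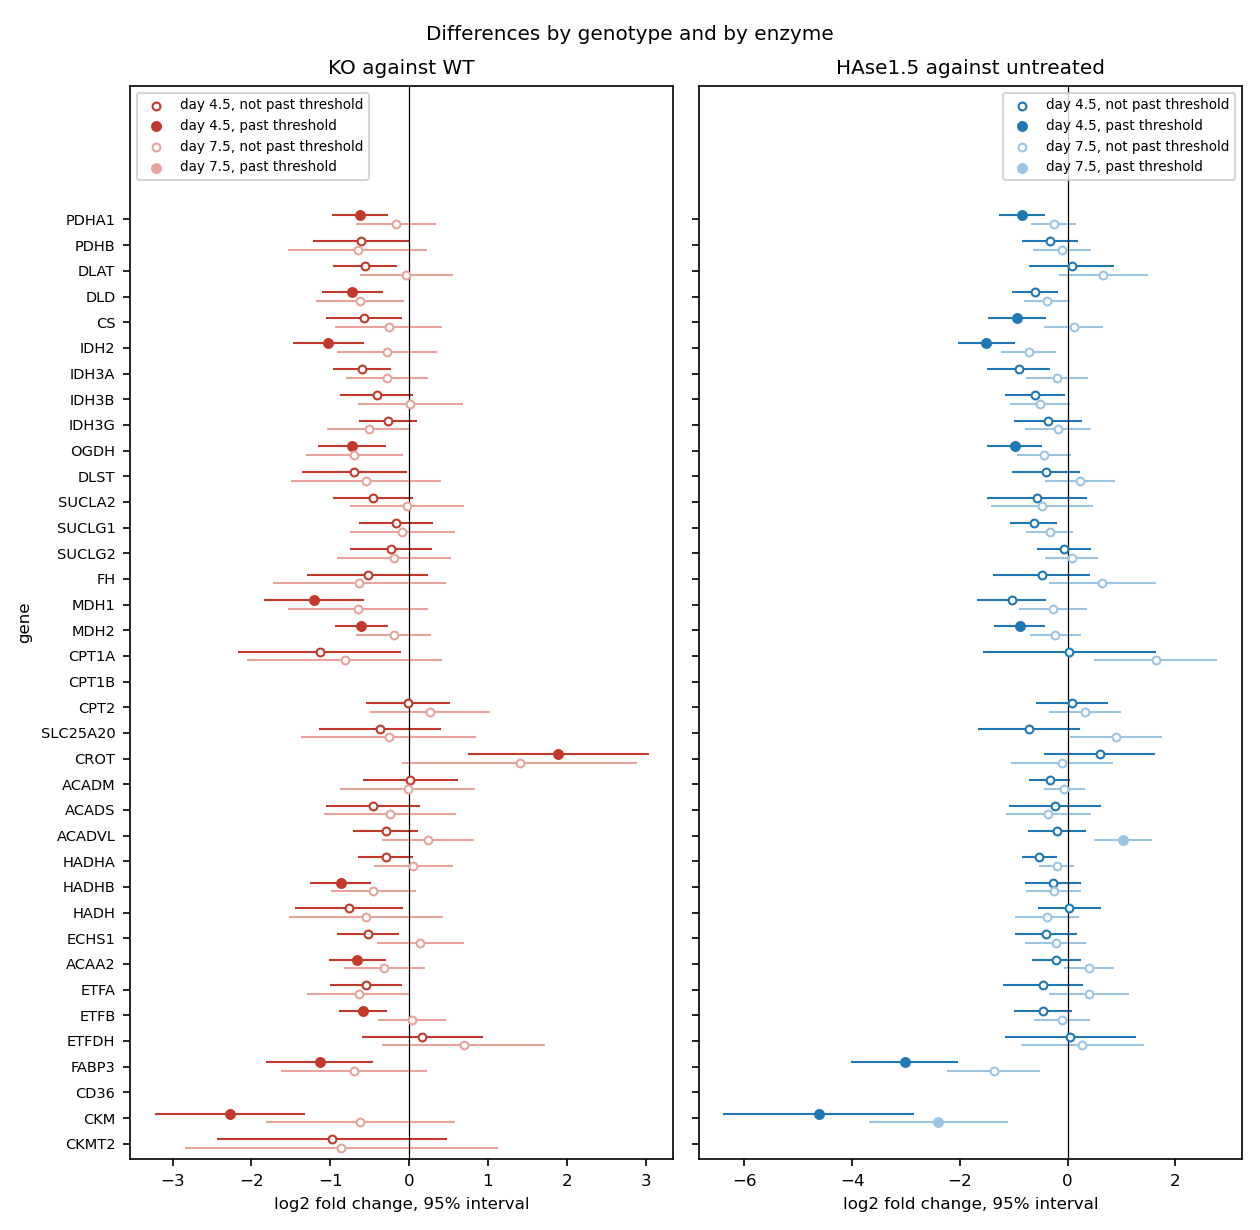
Log2 fold change of each gene with its 95% interval for KO against WT (left) and HAse1.5 against untreated (right), dark at day 4.5 and light at day 7.5, with filled points for an adjusted p under 0.05. At day 4.5 most points lie left of 0 in both panels, CKM farthest, and CROT in KO and ACADVL at day 7.5 in HAse1.5 are the filled points to the right.

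In untreated cardioids of the enzyme arm, 13 of 34 genes rose between days 2.5 and 4.5 and none fell, where 12% of all 12748 genes rose and 11% fell. The 8 largest were CKM (3.54), IDH3A (2.67), FABP3 (2.38), OGDH (1.596), DLAT (1.15), IDH2 (1.12), ACADVL (1.09) and MDH2 (1.00). In all of them the 3 libraries of each day were apart, as they also were in genes that did not pass, such as PDHB, DLD and FH. The count was 8 without number 1 of day 4.5. With library totals the share of higher calls over all genes was 64.4% in place of 52.0%, and the median of all genes 0.148 in place of 0.021. Between days 4.5 and 7.5, CS and FH fell and none rose, where 3.45% of all genes rose and 2.92% fell. CS went from 158, 130 and 97.4 CPM to 53.5, 84.2 and 44.5 CPM (−0.96, SE 0.263, adjusted p = 0.0296), and FH from 70.3, 62.2 and 60.5 CPM to 17.0, 26.8 and 15.6 CPM (−1.57, SE 0.468, adjusted p = 0.0454). The count of 2 was 0 without number 1 or 3 of day 7.5 or number 2 of day 4.5, 1 without number 3 of day 4.5, and 5 without number 2 of day 7.5. It was 4 with the cell line as a replicate block, 4 by DESeq2, 6 with no filter and 1 in a fit of these 2 groups alone. With library totals 37% of the calls over all genes were higher in place of 54.2%, and the median of all genes was −0.118 in place of 0.

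**Figure D4:**
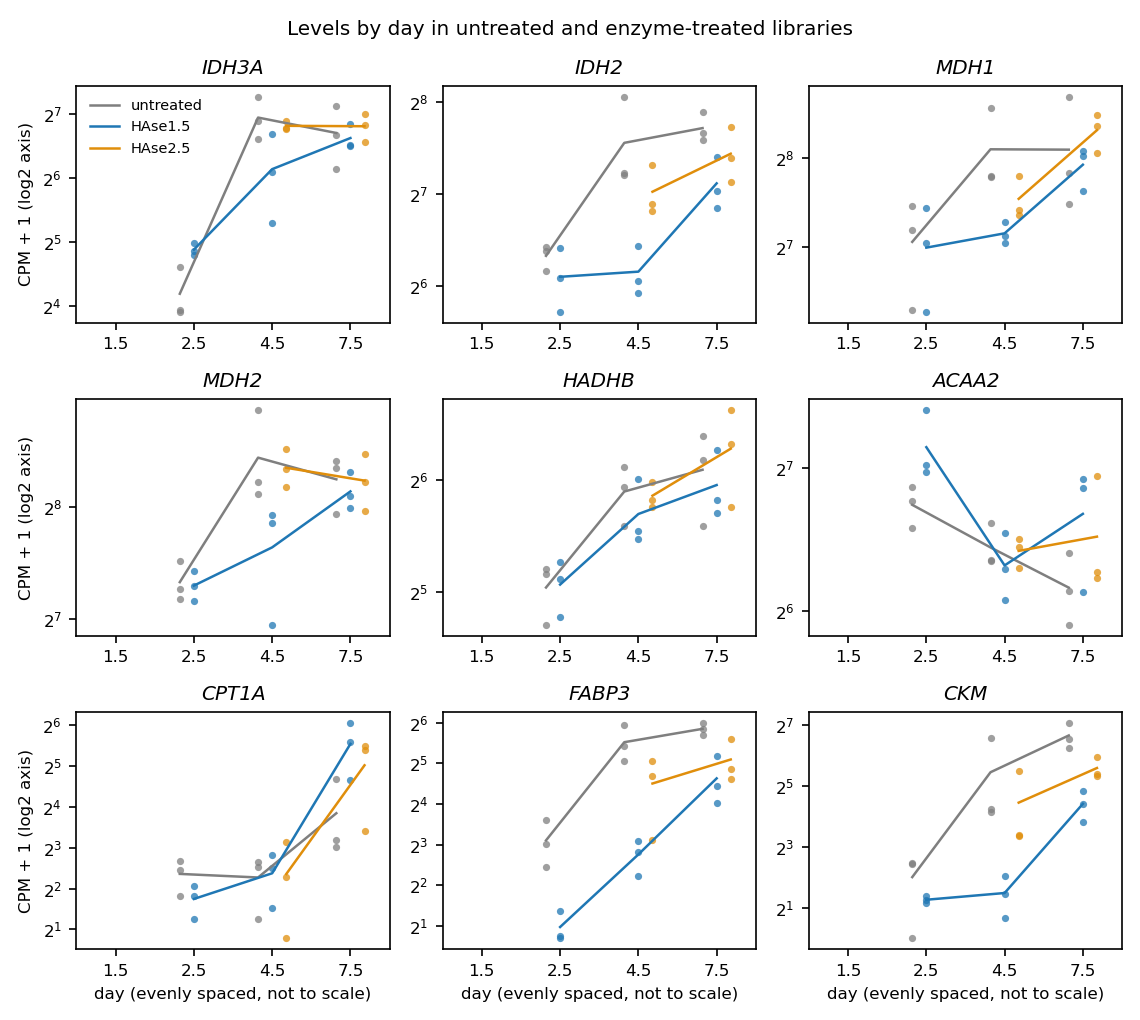
CPM plus 1 (log2 axis) by day for the same 9 genes in the enzyme arm, with a point for each library and lines through the group means of untreated (grey), HAse1.5 (blue) and HAse2.5 (orange). At day 4.5 the HAse1.5 points of CKM, FABP3, IDH2 and MDH2 lie under all untreated points, and at day 7.5 the HAse1.5 points of CPT1A reach 65.4 CPM.

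At day 4.5, a small set of the genes was lower after hyaluronidase from day 1.5. Of 34 tested, 7 were lower and none higher, where 2.41% of all genes were lower and 1.07% higher. The difference was below 0 for 28 of 34, including all 13 TCA enzymes, with a median of −0.459 against 0.017 over all genes. The 7 were apart from untreated in every library, but they were called from these same libraries, so this is not separate evidence. CKM had 93.5, 16.9 and 18.1 CPM in untreated libraries 1, 2 and 3 and 3.10, 1.73 and 0.582 CPM (5, 2 and 1 counts) in HAse1.5 (−4.62, SE 0.851, adjusted p = 0.00272). FABP3 had 60.7, 41.7 and 32.0 CPM untreated and 3.72, 6.05 and 7.57 CPM treated (−3.02, SE 0.481, adjusted p = 5.49e-04). IDH2 had 265, 149 and 147 CPM untreated and 59.6, 85.6 and 65.2 CPM treated (−1.51, SE 0.257, adjusted p = 0.00107). FABP3 and IDH2 passed in every alternative.

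The other 4 were OGDH (−0.98, adjusted p = 0.023), CS (−0.94, adjusted p = 0.0441), MDH2 (−0.89, adjusted p = 0.0277) and PDHA1 (−0.85, adjusted p = 0.0183), which encode enzymes of acetyl-CoA supply and of the cycle itself. MDH2 had 465, 298 and 276 CPM untreated and 122, 231 and 242 CPM treated. In each of these 4 the pair of number 1 had the widest gap, and without untreated number 1 or without HAse1.5 number 1 the count fell from 7 to 3. It was also 3 in a fit of the 2 groups alone, where neither these 4 nor CKM passed (CKM adjusted p = 0.0785). None of the 4 tested carnitine-shuttle genes, 8 β-oxidation enzymes or 3 flavoprotein genes passed. HADHB, lower in KO, had 47.1, 68.4 and 60.5 CPM untreated and 43.4, 45.8 and 63.4 CPM in HAse1.5. Summed cardiomyocyte markers fell with these genes, from 50977, 31871 and 26086 CPM to 5192, 19650 and 8996 CPM in numbers 1, 2 and 3, with 9 of 10 markers passing, and their part in the result was not tested. Of the other marker lists, 2 of 7 cardiac progenitor genes were higher and 1 lower, and 1 endoderm, 1 epicardial and 1 fibroblast or smooth muscle gene were lower.

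At day 2.5, FABP3 was the 1 gene that passed, where 0.894% of all genes were lower and 0.243% higher. It had 14, 5 and 20 counts in untreated libraries and 1, 2 and 1 in HAse1.5 (adjusted p = 0.0374). The call was lost without number 1 or number 3 of either group and in a fit of the 2 groups alone (highest adjusted p 0.236). Cardiomyocyte markers summed to 2804 to 3898 CPM untreated and 1279 to 1470 CPM treated at that day, with MYH6, MYH7 and ACTN2 at 0 in every treated library. MYH7 was at 0 in the untreated ones too, 2 of 10 markers passed as lower, and their part was not tested. The rise between days 2.5 and 4.5 differed between HAse1.5 and untreated for OGDH (difference of the steps −1.58, SE 0.359, adjusted p = 0.0338), 1 of 34 genes where 0.706% of all genes passed. OGDH went from 28.6, 30.4 and 15.7 CPM to 103, 74.6 and 65.4 CPM untreated and from 33.6, 41.5 and 39.3 CPM to 30.4, 49.3 and 51.2 CPM in HAse1.5. This call was lost without number 1 of either group at day 4.5, number 2 of HAse1.5 at day 2.5 or number 3 of either group at day 2.5 (count 0), and the count was 2 without HAse1.5 number 2 of day 4.5, and 3 by DESeq2 or with no filter.

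By day 7.5 the HAse1.5 pattern was mixed. Of 34 genes 1 was higher and 1 lower, where 1.41% of all genes were higher and 1.92% lower (56.4% of the calls were higher with library totals, in place of 42.4%, and the median of all genes was 0.13 in place of 0.018). CKM was still lower, with 91.9, 75.9 and 133 CPM untreated and 13.0, 20.1 and 27.9 CPM treated (−2.40, SE 0.621, adjusted p = 0.0347). ACADVL, the very long-chain acyl-CoA dehydrogenase, was higher, with 90.1, 161 and 51.2 CPM untreated and 277, 211 and 177 CPM treated (1.03, SE 0.261, adjusted p = 0.0282). Untreated ACADVL had been 174, 170 and 152 CPM at day 4.5. ACADVL overlaps DLG4 on the genome. CPT1A had 7.14, 24.9 and 8.16 CPM untreated and 24.5, 65.4 and 47.4 CPM treated, and SLC25A20 9.82, 12.8 and 8.90 CPM untreated and 27.7, 21.6 and 14.6 CPM treated. Neither passed (CPT1A 1.63, 95% interval 0.485 to 2.78, adjusted p = 0.117, SLC25A20 0.89, adjusted p = 0.272), and in CPT1A the highest treated value and the highest untreated value were both of number 2, the WT line. FABP3 (−1.38, adjusted p = 0.0695) and IDH2 (−0.72, adjusted p = 0.122) lay below untreated in every library without passing.

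With the cell line as a replicate block, 4 genes passed at day 7.5, among them CKM and ACADVL. With no filter 4 passed, but CKM was not among them, and in a fit of these 2 groups alone 1 passed, CKM but not ACADVL. Without untreated number 1 or 3, or HAse1.5 number 1 or 2, none passed. Summed cardiomyocyte markers were 71971, 66581 and 74383 CPM untreated and 31624, 34590 and 35508 CPM in HAse1.5, 3 of 10 markers passed as lower, and their part was not tested. Beside them, 2 of 7 cardiac progenitor genes were higher and 1 lower, and 3 of 6 tested endoderm and liver-type genes were lower. Between days 4.5 and 7.5 the step of HAse1.5 exceeded the untreated step for 31 of 34 genes, and none passed, where 0.0157% of all genes did, with 1 call either with no filter or without untreated number 2 of day 7.5.

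Between HAse2.5 and untreated, no gene passed at day 4.5, where 0.22% of all genes did, or at day 7.5, where 0.659% did, with 3 and 1 genes at an unadjusted p under 0.05. At day 4.5 CKM had 43.8, 9.37 and 9.62 CPM and FABP3 32.3, 25.0 and 7.69 CPM in HAse2.5, between HAse1.5 and untreated in each of the 3 lines (FABP3 −1.09, 95% interval −1.96 to −0.23, adjusted p = 0.463). ACADVL at day 7.5 was 165, 182 and 228 CPM, above every untreated library (0.87, 95% interval 0.333 to 1.41, adjusted p = 0.139). Leaving out untreated number 2 of day 7.5 or the filter gave 1 call at that day. The step between days 4.5 and 7.5 differed from untreated for no gene (0% of all genes).

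The direct comparison of HAse1.5 with HAse2.5, which differ by when the enzyme was added, gave no call at day 4.5 (0.361% of all genes passed) or day 7.5 (0.00784%). At day 4.5, 33 of 34 differences were below 0, with a median of −0.278 against 0.007 over all genes, and 10 had an unadjusted p under 0.05. FABP3 (−1.93, 95% interval −2.95 to −0.91, adjusted p = 0.0849), CKM (−3.54, 95% interval −5.38 to −1.69, adjusted p = 0.0854) and IDH2 (−0.93, 95% interval −1.46 to −0.40, adjusted p = 0.116) were lower in every HAse1.5 library than in every HAse2.5 library. For FABP3 the gap in CPM was narrow, with 13 counts in HAse1.5 number 3 and 12 in HAse2.5 number 3, the smaller library. PDHA1, CS, IDH3A, OGDH, MDH1, MDH2, HADHA and ECHS1 were wholly lower too. No share of all genes that were apart is given for this comparison. With the cell line as a replicate block 1 gene passed, by DESeq2 2, with no filter 3, without HAse1.5 number 2 2 and without HAse2.5 number 3 1. At day 7.5 none had an unadjusted p under 0.05. HAse1.5 and HAse2.5 share the untreated libraries, so their differences from untreated are not independent of each other.

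**Figure D5:**
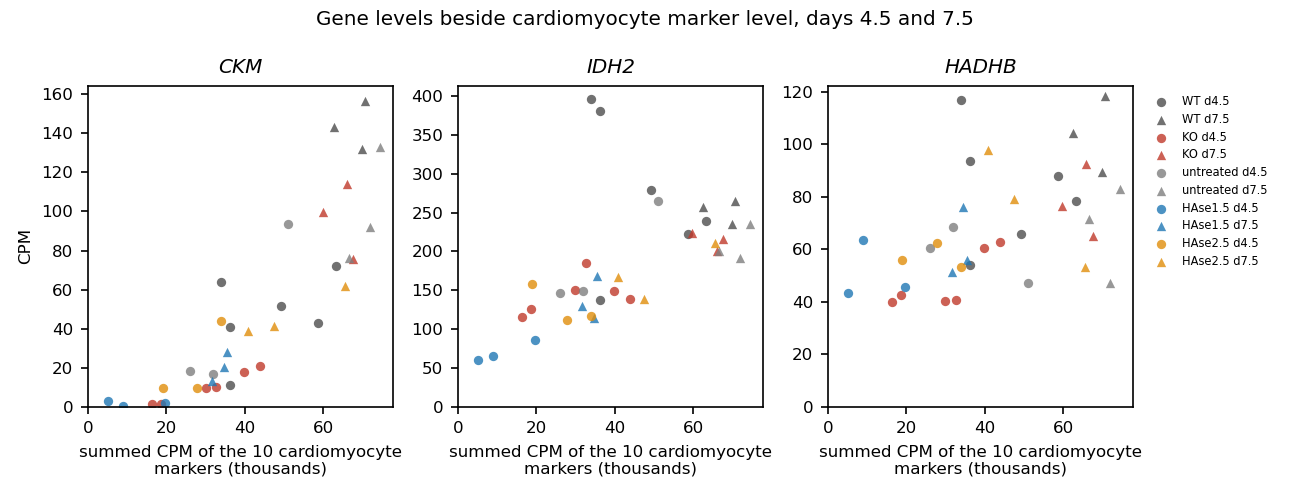
CPM of CKM, IDH2 and HADHB (vertical axes) against the summed CPM of the 10 cardiomyocyte markers (horizontal axis, scaled as its label gives), 1 point per library at day 4.5 (circles) and day 7.5 (triangles), coloured by group. The HAse1.5 libraries of day 4.5 lie at the left, and 2 WT libraries of day 4.5 have IDH2 at 380 and 396 CPM with marker sums of 36178 and 34046 CPM.

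Marker level and gene level were set side by side across the 36 libraries of days 4.5 and 7.5 in the plot of CPM against summed markers. IDH2 differed between WT libraries of similar marker sum: WT_R1 and WT_TU_R1 of day 4.5 (block A) had 380 and 396 CPM, and cl43_WT_UT (block C, marker sum 36213 CPM) had 138 CPM. The KO library cl4_R1 of day 4.5 (block A) had a marker sum of 39837 CPM, above those of 3 WT libraries of that day. It had 149 CPM of IDH2, 17.8 CPM of CKM and 60.4 CPM of HADHB. These libraries are examples picked from the 36, and they also differ by block. At day 4.5 the KO median of the marker sum lay below the WT median, as given above. The parts of cardiomyocyte content and of block in these gene levels were not tested.

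Other genes of these pathways, listed beside the 37, were tested in the same fits. Between days 2.5 and 4.5 in WT, where 18.6% of all genes rose and 15.9% fell, 11 of 24 tested genes of pyruvate and TCA metabolism rose and 1 fell, led by PDK1, a kinase that inhibits pyruvate dehydrogenase (4.70), OGDHL (3.14) and PCK2, mitochondrial phosphoenolpyruvate carboxykinase, which fell (−2.002). Of 31 tested genes of fatty acid metabolism 13 rose and 3 fell, among them ACSL1, an acyl-CoA synthetase (3.37), ACACB, the acetyl-CoA carboxylase of the mitochondrial surface (2.73), and ACOT2, a mitochondrial thioesterase (2.06). Of 14 tested regulators 5 rose and 1 fell, with PPARGC1A, a coactivator of mitochondrial biogenesis (7.01), ESRRB (4.56) and ESRRG (2.94), nuclear receptors that act with it, in front. Of 5 tested creatine genes 4 rose and 1 fell, the creatine transporter SLC6A8 (−1.16).

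At day 4.5, where 2.6% of all genes were lower and 1.14% higher in KO than in WT, 2 of these 24 pyruvate and TCA genes passed, the mitochondrial aspartate transaminase GOT2 (−0.72) and the pyruvate carrier MPC2 (−0.67), both lower. In fatty acid metabolism 3 of 31 were lower and 1 higher, led by ACOT2 (−2.21, adjusted p = 0.00893), CPT1C, a neuronal form of CPT1, which was higher (1.68, adjusted p = 0.00305), and ECH1 (−0.93). Among regulators PPARGC1B (−1.46) and PPARD (−1.21) were lower, and PPARGC1A differed by −0.13 (95% interval −0.688 to 0.424, adjusted p = 0.823). HAse1.5 against untreated at day 4.5, where 2.41% of all genes were lower and 1.07% higher, had 2 pyruvate and TCA genes lower, PDK1 (−1.83) and GOT2 (−0.81), and 1 fatty acid gene each way, CPT1C (1.26) and ACSL3 (−0.62). RXRA was the 1 regulator that was higher (0.81), and CKB, the brain-type creatine kinase, was lower (−1.48, adjusted p = 7.49e-04).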

How the data were processed

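The deposited table held raw counts per gene for 65 libraries, made by the authors with featureCounts (Subread 1.6.2) on GRCh38, per the submitters' processing notes. The aligner, strand setting and treatment of multimapping reads are not given in the sources used here, and reads without molecular identifiers are not independent molecules. Its 58735 gene IDs all occur in GENCODE 29, and 58207 had a symbol. Of its columns, 4 belong to no listed sample and were not used.

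Each arm was fitted once on all its libraries with edgeR 4.0.16 in R 4.3.3 (quasi-likelihood test, TMM factors, filterByExpr with a minimum count of 10, robust), with p-values adjusted by Benjamini-Hochberg over all genes tested, a threshold of 0.05 and 95% intervals. DESeq2 1.42.0, other scalings, no filter, fits of 2 groups alone, replicate blocks and leaving out each library were the alternatives. The edgeR fit was tested on simulated data. CPM are counts per 1000000 of the library total. A floor of 3 counts was used for folds against 0.

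The 37 genes and all lists were chosen with earlier results of these data known. Called genes are named, at most the 8 with the largest change per comparison, and CPT1A, CPT1B, FABP3, CD36, CKM and CKMT2 are described whatever their result; of the other pathway lists at most 3 called genes each are named. Called genes beyond these 8, and genes that did not pass other than those 6, were named after their values were seen. The CKMT2 bounds without single libraries were an alternative chosen after seeing the data. In the enzyme arm, libraries with the same number come from the same cell line, which pairs them: 15 of 21 same-line pairs of a day had deviations correlated above 0.1 (lowest -0.102, median 0.212). Promoter sequences are from RefSeq (GRCh38.p14).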

Additional observations from a re-analysis of the deposited data

Results flagged for a closer look

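For 28 named genes, the values of each gene in each group of 4 to 10 libraries were examined, 166 sets in all. Of these, 21 held a library far from the others (Dixon's test at 95%, which chance gives in about 1 of 20 sets). The sets share libraries and are not independent. Several came from the same libraries. In the KO groups of days 1.5 and 2.5, cl4_R1 was the only block A library, so library and block cannot be told apart there. In the KO library cl4_R1 of day 1.5, DLD (96.7 CPM, others 50.9 to 67.8), ACADVL (95.4, others 45.4 to 61.4) and ACAA2 (208, others 110 to 133) were high. In cl14_R1 of day 1.5, PDHA1 (104 CPM, others 128 to 140) and ETFA (21.3, others 58.2 to 76.4) were low and ACADS (15.8, others 4.67 to 7.70) was high. In cl4_R1 of day 2.5, the library with the fewest counts (831062), DLAT (22.9 CPM, others 35.6 to 43.1) and SUCLG1 (71.0, others 119 to 138) were low, and CS (118, others 52.8 to 70.6) and ETFA (123, others 101 to 106) were high. The WT block A libraries of that day also had low SUCLG1 (63.9 and 67.9 CPM, other WT 116 to 142). Their CS was 71.6 and 91.4 CPM (other WT 58.6 to 70.5). Their DLAT was not low (58.3 and 60.9 CPM, other WT 36.9 to 50.6), and their ETFA was inside the range of the other WT libraries. The parts of depth and block were not tested.

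In the WT library TNT2 of day 1.5, MDH2 (202 CPM, others 156 to 169) and ETFDH (4.65, others at most 2.09) were high. CROT was low in cl51_R1 of day 2.5 (0.574 CPM, others 7.23 to 9.63), and ETFDH in WT_R2 of day 2.5 (1.43, others 3.39 to 4.08). The remaining cases rest on few counts: CPT1B in WT_R2 of day 1.5 (2.09 CPM), cl4_R3 of day 2.5 (1.11) and TNT2 of day 4.5 (5.78), CD36 in WT_TU_R2 (1.40) and cl4_R3 (1.11) of day 2.5, and CKM (3.87) and CKMT2 (0.553) in cl4_R2 of day 1.5.

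The rise between days 2.5 and 4.5 differed between groups in 3 tests of the difference itself (edgeR quasi-likelihood, adjusted p under 0.05): CKM (−3.289 on the log2 scale) and ETFB (−0.869) between KO and WT, and OGDH (−1.578) between HAse1.5 and untreated.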

How the results depend on the processing

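Counts of called genes are given under each alternative, with the reported count in brackets. An equal or higher count need not hold the same genes. With no filter on low counts, KO against WT at day 4.5 gave 3 (12), KO between days 1.5 and 2.5 6 (12), HAse1.5 against untreated at day 7.5 4 (2), HAse2.5 against untreated at day 7.5 1 (0), HAse1.5 against HAse2.5 at day 4.5 3 (0), untreated between days 4.5 and 7.5 6 (2), and the differences of steps 0 (2) for KO between days 2.5 and 4.5, 3 (1) for HAse1.5 between days 2.5 and 4.5 and 1 (0) between days 4.5 and 7.5. Fits of the 2 groups alone gave 3 (12) for KO against WT at day 4.5, 7 (12) for KO between days 1.5 and 2.5, 5 (3) between days 4.5 and 7.5, 0 (1), 3 (7) and 1 (2) for HAse1.5 against untreated at days 2.5, 4.5 and 7.5, and 1 (2) for untreated between days 4.5 and 7.5. DESeq2 gave 1 (0) for WT and 6 (3) for KO between days 4.5 and 7.5, 2 (0) for HAse1.5 against HAse2.5 at day 4.5, 4 (2) for untreated between days 4.5 and 7.5 and 3 (1) for the HAse1.5 step. Library totals gave 1 (0) for WT between days 4.5 and 7.5, and block C alone 2 (12) for KO against WT at day 4.5. The cause of these changes in count was not tested.

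With a replicate block, WT and KO between days 4.5 and 7.5 gave 2 (0) and 5 (3), HAse1.5 against untreated at day 7.5 4 (2), HAse1.5 against HAse2.5 at day 4.5 1 (0), untreated between days 4.5 and 7.5 4 (2) and the KO step 4 (2). The block moved no other count by over 1.5 times. In the genotype arm, numbers are shared without a stated pairing: 26 of 37 KO and WT pairs of the same number block and day, and 38 of 51 pairs of the same line and R number, correlated above 0.1.

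Leaving out 1 library gave 3 to 14 for KO against WT at day 4.5, 0 to 1 for WT between days 4.5 and 7.5, 7 to 11 and 2 to 5 for KO between days 1.5 and 2.5 and between 4.5 and 7.5, 0 to 1, 3 to 9 and 0 to 3 for HAse1.5 against untreated at days 2.5, 4.5 and 7.5, 0 to 1 for HAse2.5 at day 7.5, 0 to 2 for HAse1.5 against HAse2.5 at day 4.5, 8 to 13 and 0 to 5 for untreated between days 2.5 and 4.5 and between 4.5 and 7.5, 0 to 3 for the KO step, and 0 to 2 and 0 to 1 for the HAse1.5 steps. Of 72 results for named genes, 42 passed in every alternative and none reversed, and 201 of 1158 alternatives no longer passed. CPT1B and CD36 had too few counts to test at this depth.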
